A study of Mus musculus with 12 samples.

Results

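Mouse microglia carry cell-surface proteins that sense nucleotides or adenosine in the space around them, or that cut nucleotides. Transcripts of 8 genes for such proteins and their relatives were followed through 4 ways of dissociating the brain. The genes were P2ry12, P2ry13, P2ry6, P2rx4, P2rx7, Entpd1, Adora3 and Gpr34, found by symbol among the 31053 genes of the deposited feature list, and all 8 were present. Whole brains of 12 male C57BL/6J mice at about postnatal day 90 were dissociated, live CD45+ CD11b+ cells were sorted, and droplet single-cell RNA libraries were read from the 3' end of each transcript, 1 library per mouse. In DNC-NONE, tissue was homogenised in a cold Dounce without inhibitors. DNC-INHIB used the same cold Dounce with a cocktail that blocks transcription and translation (actinomycin D, triptolide and anisomycin). In ENZ-NONE, tissue was digested with enzymes in a warmed dissociator and no inhibitors were added, and ENZ-INHIB was the same digestion with the cocktail. Each group held 3 mice, no transgene or other alteration is named for any of them, and the labels also divide the mice over 2 batches. The cells were gated on surface CD45 and CD11b, and the meninges, where many border macrophages live, had been removed as far as possible before dissociation.

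Damaged cells spill ATP, which is cut step by step to ADP, AMP and adenosine, and microglia carry receptors for ATP, ADP and adenosine. P2ry12 and P2ry13 encode G protein-coupled receptors for ADP, and P2ry12 is known for steering microglial processes towards an injury. P2ry6 encodes a receptor for UDP linked to phagocytosis, P2rx4 and P2rx7 encode ATP-gated cation channels, and P2rx7 is known as a trigger of the NLRP3 inflammasome. Entpd1 (CD39) is the ectonucleotidase that removes phosphates from ATP and ADP, Adora3 is an adenosine receptor, and Gpr34 is a relative of P2ry12 whose known ligand is lysophosphatidylserine rather than a nucleotide.

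Several of the genes are neighbours on GRCm38. P2ry12 (chr3:59216272-59262871) and P2ry13 (chr3:59207892-59210882) lie on the minus strand 5389 bases apart, both inside Med12l on the opposite strand. P2rx7 (chr5:122643911-122691432) and P2rx4 (chr5:122707544-122729738) lie on the plus strand 16111 bases apart. Adora3 (chr3:105870858-105908926), Entpd1 (chr19:40612366-40741602) and Gpr34 (chrX:13632089-13640858, inside Cask on the opposite strand) are on the plus strand, and P2ry6 (chr7:100937630-100974649) is on the minus strand. Adora3 shares exons with Tmigd3 on the same strand, so its counts are uncertain, because reads that fall in both genes could be dropped or credited to either. For P2ry12, an exon of Med12l overlaps on the other strand.

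Promoters of 6 of the genes were found in the RefSeq table for GRCm38.p6, and P2ry6 and Gpr34 were not matched. Of these 6 genes, P2ry12, P2ry13 and Adora3 had the largest differences between microglia-like and border macrophage-like cells in the data below. P2rx4 is shown beside them as the one whose mean difference between the clustered classes was negative, though smaller than its spread. Their promoters are printed from 250 bases before the transcription start to 50 bases after it, with capitals marking AGGAAG or its reverse complement CTTCCT, a core recognised by PU.1 and other ETS factors.
P2ry12: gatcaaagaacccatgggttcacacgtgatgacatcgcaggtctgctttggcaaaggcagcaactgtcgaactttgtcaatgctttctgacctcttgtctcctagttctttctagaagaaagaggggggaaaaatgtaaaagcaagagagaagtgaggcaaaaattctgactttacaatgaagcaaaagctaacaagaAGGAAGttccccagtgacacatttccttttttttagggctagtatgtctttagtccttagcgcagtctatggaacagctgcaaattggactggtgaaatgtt
P2ry13: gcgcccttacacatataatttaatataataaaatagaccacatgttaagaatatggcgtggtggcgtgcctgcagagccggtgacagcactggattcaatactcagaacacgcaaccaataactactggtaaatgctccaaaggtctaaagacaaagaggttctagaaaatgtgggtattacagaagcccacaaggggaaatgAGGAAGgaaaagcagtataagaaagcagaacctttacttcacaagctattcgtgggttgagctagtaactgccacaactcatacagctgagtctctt
Adora3: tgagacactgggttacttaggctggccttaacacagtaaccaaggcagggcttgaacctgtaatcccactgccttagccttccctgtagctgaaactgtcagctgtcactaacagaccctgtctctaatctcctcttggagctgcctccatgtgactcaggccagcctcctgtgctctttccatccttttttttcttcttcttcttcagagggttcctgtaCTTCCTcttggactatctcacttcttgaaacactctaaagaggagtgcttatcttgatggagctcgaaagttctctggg
P2rx4: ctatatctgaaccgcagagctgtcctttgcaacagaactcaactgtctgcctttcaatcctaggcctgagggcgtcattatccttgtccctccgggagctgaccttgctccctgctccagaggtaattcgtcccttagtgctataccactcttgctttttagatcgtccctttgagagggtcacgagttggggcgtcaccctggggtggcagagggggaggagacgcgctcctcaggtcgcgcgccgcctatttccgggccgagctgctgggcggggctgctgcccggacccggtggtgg
The P2ry12 sequence is chr3:59262936-59263235 and the P2ry13 sequence chr3:59210833-59211132, both on the minus strand. The Adora3 sequence is chr3:105904171-105904470 and the P2rx4 sequence chr5:122707294-122707593, both on the plus strand. The motif was present once in each of the first 3 and had no match in this window of P2rx4. It is common, being found on either strand in 35.4% of 32851 promoters of this length, and 5 of the 8 promoters listed for these 6 genes held it, so the letters describe the sequences and nothing more.

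Of 28426 barcodes deposited, 18827 were kept after filters on genes, UMIs (unique molecular identifiers, each standing for 1 captured transcript) and mitochondrial reads, with 853 to 2185 cells, 1059783 to 3233159 UMIs and a median of 1153 to 1572 UMIs per cell in each library. Clustering was done without the 8 genes. It gave 17877 microglia-like cells in 8 clusters, 313 border macrophage-like cells in 2 clusters, 409 interferon-responsive-like cells and small groups of other cells. The 10 fixed microglial markers summed to 28524 to 38248 CPM (UMIs per 1000000) in the microglia-like clusters and to 1990.5 to 8795 in clusters 10 to 13, where UMIs of all 10 were still detected except in cluster 13 (9 of 10). Of the border macrophage-like cells, cluster 12 (116 cells) carried all 10 fixed border macrophage markers, Mrc1, Pf4 and F13a1 among its leading genes. Cluster 10 (197 cells) was led by Cd74 and H2-Aa, class II antigen presentation genes, with Ccr2, a monocyte marker, and Ms4a7 and Pf4 after them, and its class II genes also led the dendritic-like cluster 13. Among the deposited barcodes, 503 sequences occurred in more than 1 library, and 472 kept cells carried such a barcode. Libraries ENZ-NONE 6 and DNC-NONE 1 stood apart from the rest of their groups: 34.0% and 6.47% of their cells fell in a Fos-led microglial cluster, against 0 to 2.95% in the other libraries.

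P2ry12 was by far the most abundant of the 8 transcripts, and over whole libraries it was called in no comparison of preparations. Levels are given in CPM, the UMIs of a gene per 1000000 UMIs of the kept cells in a library. In DNC-NONE, P2ry12 stood at 6858, 8110 and 7674 CPM, and in DNC-INHIB at 7687, 7624 and 7078. ENZ-NONE gave 8168, 8381 and 5825 and ENZ-INHIB 7913, 7614 and 7610. The ranges of all 4 groups overlapped, and the lowest and the highest library of the series both belonged to ENZ-NONE. Averaged over inhibitors, digestion minus Dounce was 0.04 on the log2 scale (SE 0.07, n = 6 against 6, edgeR quasi-likelihood test, adjusted p = 0.881, 95% interval -0.11 to 0.18). Averaged over methods, no inhibitors minus inhibitors was -0.00 (SE 0.07, adjusted p = 1, interval -0.15 to 0.14).

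Library ENZ-NONE 6 set the width of the P2ry12 values. Without it, digestion minus Dounce was 0.10 (adjusted p = 0.358). Within batch 1 the digested libraries averaged 8154 and the Dounce libraries 7552 CPM, and within batch 2, which holds ENZ-NONE 6, they averaged 7016 and 7459. The difference was therefore 0.11 in batch 1 and -0.10 in batch 2, 3 libraries against 3 in each.

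P2ry13, the second ADP receptor and the neighbour of P2ry12, had the largest difference of the 8 genes in this contrast, and it did not pass the test. Its levels were 527, 602 and 759 CPM in DNC-NONE and 660.2, 702 and 734 in DNC-INHIB. ENZ-NONE gave 645, 763 and 751, and ENZ-INHIB 755, 730.1 and 873. The groups overlapped, with the 2 lowest libraries in DNC-NONE and the highest in ENZ-INHIB. Digestion minus Dounce was 0.21 (SE 0.09, unadjusted p = 0.0272, adjusted p = 0.302 by edgeR), 0.28 within batch 1 and 0.10 within batch 2.

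Gpr34 was the second most abundant transcript and varied between libraries as P2ry12 did. It stood at 2017, 2180 and 2307 CPM in DNC-NONE and at 2271, 2274 and 2379 in DNC-INHIB. In the digested libraries it was 2477, 2558 and 1787 (ENZ-NONE) and 2469, 2315 and 2375 (ENZ-INHIB). Once more ENZ-NONE held both the highest and the lowest library, the lowest being ENZ-NONE 6. Digestion minus Dounce was 0.08 (SE 0.07, adjusted p = 0.694 by edgeR), 0.22 within batch 1 and -0.12 within batch 2, and 0.15 without ENZ-NONE 6.

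**Figure D1:**
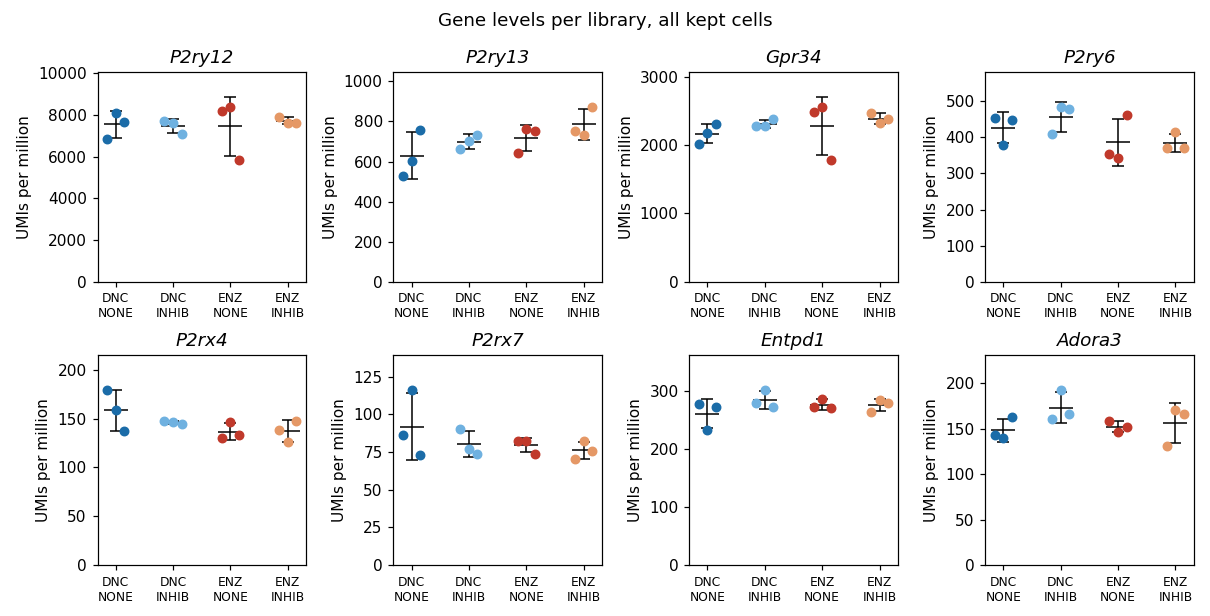
Level of each of the 8 genes in CPM (UMIs per 1000000 UMIs of kept cells, vertical axes, linear from 0), 1 point per library, with the mean and SD of each preparation (n = 3). P2ry12 lies between 5825 and 8381 in all 12 libraries and P2rx7, the lowest, between 70.6 and 116, and the points of the 4 preparations overlap for each gene.

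The UDP receptor P2ry6 leaned the other way from P2ry13, again within the error. The Dounce libraries gave 455, 378 and 447 CPM (DNC-NONE) and 409, 484 and 477 CPM (DNC-INHIB). The digested libraries gave 355, 342 and 461 CPM (ENZ-NONE) and 369, 414 and 369 CPM (ENZ-INHIB). Of the 6 digested libraries 4 lay below all 6 Dounce libraries, while ENZ-INHIB 2 and ENZ-NONE 6 lay among them. Digestion minus Dounce was -0.17 (SE 0.09, adjusted p = 0.440 by edgeR), and -0.22 and -0.19 within the batches.

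The ATP-gated channels were the scarcest transcripts. P2rx4 gave 179, 158 and 138 CPM with the Dounce and no inhibitors and 148, 147 and 145 CPM with them, and after digestion 129.9, 146 and 133 CPM without and 138, 126 and 148 CPM with inhibitors. P2rx7, in the same order of groups, gave 86.4, 116 and 72.7, then 90.4, 77.2 and 73.9, then 82.2, 82.6 and 74.0, then 70.6, 82.2 and 75.6 CPM. For both channels the highest library was in DNC-NONE and the remaining libraries overlapped. Digestion minus Dounce was -0.13 (SE 0.07) for P2rx4 and -0.10 (SE 0.09) for P2rx7, with adjusted p = 0.484 and 0.751 by edgeR.

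Entpd1 was the steadiest of the 8 genes, with a coefficient of variation of 5.95% over the 12 libraries against 9.15% or more for the others. It lay between 232 (DNC-NONE 2) and 301 (DNC-INHIB 5) CPM, with a median of 274. Adora3 lay between 130.9 (ENZ-INHIB 1) and 193 (DNC-INHIB 5), with a median of 160.1. Their digestion minus Dounce values were 0.04 (SE 0.07) and -0.03 (SE 0.08), with adjusted p = 0.857 and 0.937 by edgeR.

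In whole-library sums, 0 of the 8 genes were called in any comparison of preparations, where a call needs an adjusted p under 0.05 and an absolute log2 change over 0.58. Among the 9882 genes tested, the share called was 0.617% for ENZ-NONE minus DNC-NONE, 0.799% for ENZ-NONE minus DNC-INHIB and 0.385% for ENZ-NONE minus ENZ-INHIB. It was 0.152% for ENZ-INHIB minus DNC-INHIB, 0.101% for ENZ-INHIB minus DNC-NONE and 0.0% for DNC-NONE minus DNC-INHIB, where 467 genes had an unadjusted p under 0.05 and DESeq2 called 0. For the averaged contrasts it was 0.891% (digestion minus Dounce), 0.223% (no inhibitors minus inhibitors) and 0.172% (the interaction of both). Against shares this low, a count of 0 among 8 genes says little, and the intervals of the changes say more. Over the 6 pairs of preparations the 48 log2 values ran from -0.24 to 0.33, and 47 of their 48 intervals (95%) lay inside the limits of -0.58 and 0.58. The exception was P2ry13 in ENZ-INHIB minus DNC-NONE, at 0.33 (interval 0.07 to 0.59, adjusted p = 0.325 by edgeR). Over all 9 contrasts, 2 of 72 values had an unadjusted p under 0.05 by edgeR and the smallest adjusted p was 0.302, and DESeq2 called 0 of the 8 as well. The median log2 value of the 8 genes for digestion minus Dounce was 0.00, as was that of all genes tested. The pairs share groups with one another, so their values are not separate evidence.

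**Figure D2:**
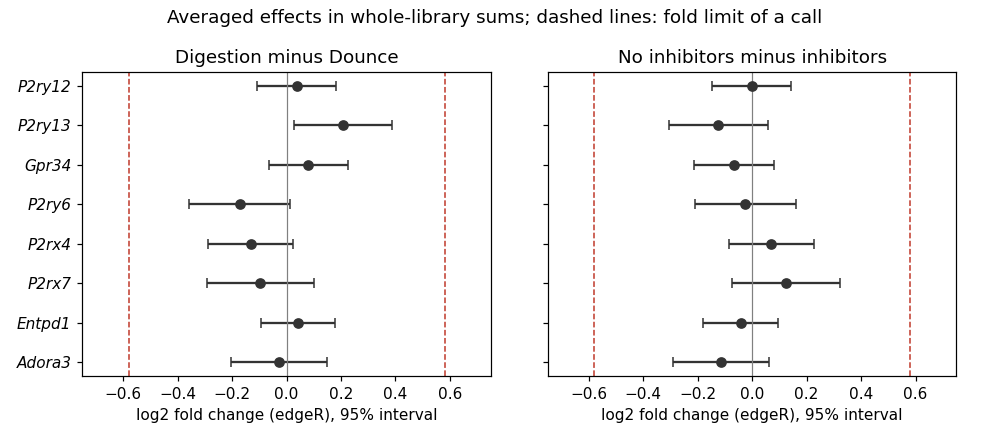
Log2 difference between preparations for each of the 8 genes (horizontal axis, points with 95% intervals from the edgeR fit of whole-library sums), with dashed lines at the fold limit of 0.58 in either direction. Digestion minus Dounce runs from -0.17 (P2ry6) to 0.21 (P2ry13) and each interval of the averaged contrasts includes 0 except that of P2ry13 for digestion.

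Sums over microglia-like cells alone gave the same count, with 0 of 8 genes called for digestion (background 0.859% of 9665 genes) and for inhibitors (background 0.228%). P2ry12 was then at 0.01 (SE 0.06) for digestion minus Dounce and 0.02 (SE 0.06) for no inhibitors minus inhibitors, with adjusted p = 0.981 and 0.986 by edgeR. P2ry13 was at 0.18 (SE 0.08, adjusted p = 0.359) and P2ry6 at -0.18 (SE 0.09, adjusted p = 0.424) for digestion, the highest and the lowest of the 8. For inhibitors the 8 values ran from -0.10 (P2ry13) to 0.12 (P2rx7).

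Individual microglia were next compared after each cell had been thinned at random to 1000 UMIs, so that depth was equal. A microglia-like cell held 7.82 P2ry12 UMIs on average (median 7, with 3 at the 10th percentile, 13 at the 90th and 29 in the highest cell). Only 0.649% of cells held none. The variance of the P2ry12 count was 1.89 times its mean (1.62 to 2.02 within single libraries), where counting alone would give a ratio of 1, and the ratio was 1.295 for Gpr34 and 1.03 to 1.13 for the other 6 genes. The ratio tends to 1 for scarce transcripts, so it cannot be compared between genes of such different levels.

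The share of microglia-like cells with at least 1 UMI followed the abundance. It averaged 99.3% for P2ry12, 87.8% for Gpr34, 50.2% for P2ry13, 33.3% for P2ry6, 24.0% for Entpd1, 14.9% for Adora3, 13.1% for P2rx4 and 7.73% for P2rx7 over the 12 libraries. Without thinning the last 7 shares were 93.1%, 60.8%, 42.2%, 31.6%, 20%, 17.3% and 10.6%, so they depend on depth. Free RNA in the droplets sets a floor for such shares. Cluster 11, a group of 132 cells led by S100a8 and Ngp (median 1897 UMIs), served as a rough reading of it. Its leading genes also held the monocyte markers Plac8 and Chil3, and the fixed monocyte markers summed to 7754 CPM. Transcripts made by these cells cannot be told from free RNA, so their shares need not be free RNA alone. There the thinned shares were 14.4% for P2ry12, 5.30% for Gpr34, 3.03% for P2ry13, 4.55% for P2ry6, 2.27% for Entpd1 and 3.79% for P2rx4. P2rx7 and Adora3 were in 0 of the 132 thinned cells, which allows a share of up to 2.27% (3 counts; exact 95% upper limit 2.76%). In 63 dendritic-like cells (median 2513 UMIs) the share was 11.1% for P2ry12, 15.9% for P2ry6 and 9.52% for P2rx4. All 8 microglial shares were above those of cluster 11, and 3.21 to 3.43 of the 8 genes were seen per thinned microglia-like cell as library averages. Of ENZ-NONE 6 cells 87.6% held 3 or more P2ry12 UMIs, against 92.8% to 95.9% in the other 11 libraries.

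Microglia-like and border macrophage-like cells were then set side by side within each library. Of the 313 border macrophage-like cells, 197 belong to cluster 10, which was led by class II genes and also carried Ccr2. This is a description with no test, because the classes came from clustering the same cells. P2ry12 averaged 7870 ± 712 CPM in microglia-like cells and 716 ± 559 in border macrophage-like cells (SD, n = 12 libraries). The microglial level ran from 6142 over a median of 7915 to 8911, and the border macrophage level from 147 over a median of 556 to 1830, so the classes did not overlap. The mean log2 difference, on the scale of log2(CPM + 10), was 3.86 ± 1.14. After thinning, 29.6% of border macrophage-like cells held a P2ry12 UMI as a mean of libraries (6.45% to 53.3%), against 99.3% of microglia-like cells. Most border macrophage-like cells thus held none at this depth, and their mean CPM is not the level of a typical cell.

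Gpr34, P2ry13 and Adora3 were also lower in the border macrophage-like cells of all 12 libraries. Gpr34 stood at 2374 ± 198 against 409 ± 121 CPM, a log2 difference of 2.57 ± 0.48 and the most even of the 4 across libraries. P2ry13 stood at 734 ± 86.1 against 141 ± 88.8, a difference of 2.65 ± 1.28, whose highest value (6.05) came from a library with 0 UMIs in its border macrophage-like cells and depends on the pseudocount. Adora3, the adenosine receptor, was close to missing, with 6 UMIs in all 313 border macrophage-like cells and 0 in 7 of 12 libraries, or 11.4 CPM (exact Poisson interval 4.17 to 24.7) against 166 (160.5 to 170.6) in microglia-like cells. These intervals cover counting error only. Entpd1 was higher in microglia in 11 of 12 libraries (282 ± 12.95 against 96.1 ± 87.3), although border macrophages of 2 libraries held 0 UMIs of it, so its difference of 2.07 ± 1.58 depends on the pseudocount.

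For the remaining 3 genes the class means lay closer together. P2ry6 was 421 ± 52.7 CPM in microglia-like and 335 ± 105 in border macrophage-like cells, a log2 difference of 0.39 ± 0.41, with microglia higher in 10 of 12 libraries. P2rx7 was 82.8 ± 11.1 and 92.2 ± 61.1, with microglia higher in 5 libraries and a difference of 0.11 ± 0.93 that was smaller than its spread. P2rx4 was 143 ± 15.9 in microglia-like and 242 ± 100.3 in border macrophage-like cells, with microglia higher in only 3 of 12 libraries, and its difference of -0.60 ± 0.65 was also smaller than its spread. These small differences moved with the choice of cells. With a marker gate in place of clusters P2rx4 was at -0.75 ± 0.52 (microglia higher in 2 of 12 libraries). With a looser cell filter P2ry6 was at 0.53 ± 0.46 (higher in 12 of 12). P2rx7 changed sign, to -0.14 ± 1.31 with the gate and -0.11 ± 0.94 with the looser filter (microglia higher in 3 of 12 in both). Its class mean also covers unlike clusters, at 176 CPM in cluster 12 and 55.9 in cluster 10, pooled.

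**Figure D3:**
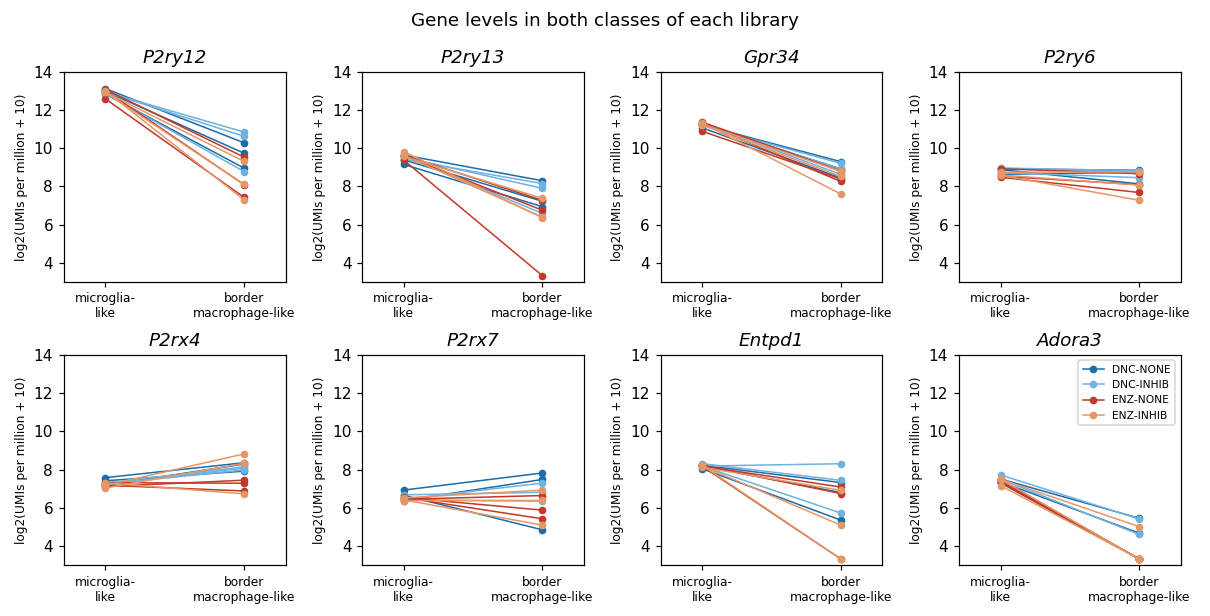
Level of each gene as log2(CPM + 10) in microglia-like and border macrophage-like cells, with a line joining the classes of each of the 12 libraries, coloured by preparation. The classes are apart for P2ry12 (medians 7915 and 556) and Gpr34, and overlap for P2ry6, P2rx7 and P2rx4.

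The 2 border macrophage-like clusters also stood at different pooled levels, given as a description because the clusters came from the same cells. Pooled over libraries, cluster 12, which carried all 10 border macrophage markers, held P2ry12 at 1331 CPM (exact Poisson interval 1171 to 1507) and cluster 10 at 423 (357 to 498). After thinning, 44.0% of cluster 12 cells and 22.3% of cluster 10 cells held a P2ry12 UMI. Gpr34 was at 596 in cluster 12 and 318 in cluster 10, P2ry13 at 218 and 97.0 and P2rx7 at 176 and 55.9, each with separate intervals. The intervals overlapped for Entpd1 (122 and 73.5), P2rx4 (272 and 220.5), P2ry6 (447 and 314) and Adora3 (26.6 and 2.94, from 5 UMIs and 1). These intervals cover counting error only and leave out the spread between mice, so separate or overlapping intervals are not a test. The preparations contribute unequally to the clusters, and within ENZ-NONE the P2ry12 order was the other way, at 223 CPM in cluster 12 (6 UMIs) and 327 in cluster 10 (26 UMIs).

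In border macrophage-like cells P2ry12 fell with digestion, and it was the 1 gene called of the 4 that could be tested there. In DNC-NONE its level in these cells was 488, 1237 and 844 CPM, from 26, 80 and 25 UMIs, and in DNC-INHIB 1570, 1830 and 429, from 46, 112 and 30 UMIs. In ENZ-NONE it was 263, 731 and 162 (8, 15 and 9 UMIs), and in ENZ-INHIB 147, 624 and 265 (4, 28 and 11 UMIs). The groups overlapped, since ENZ-NONE 5 and ENZ-INHIB 2 lay above the 2 lowest Dounce libraries, while 4 Dounce libraries lay above all digested ones. For scale, cluster 11, whose UMIs need not be free RNA alone, held P2ry12 at 276 CPM. Its exact Poisson interval of 216 to 347 covers counting error only. Of the 6 digested values, 4 were at or below 276. Of the 72 P2ry12 UMIs of cluster 11, however, 23 came from 4 cells of ENZ-INHIB 3, at 3460 CPM, against 0 to 296 in the other libraries. The comparison therefore leans on that library. Digestion minus Dounce was -1.57 on the log2 scale (SE 0.38, interval -2.35 to -0.78, edgeR adjusted p = 0.0306). The background was 2.07% of 726 genes called, 15 in number. The median of the 4 genes was -0.47 and that of all 726 genes -0.01. Gpr34 (-0.46, adjusted p = 0.290), P2rx4 (-0.49, adjusted p = 0.400) and P2ry6 (-0.43, adjusted p = 0.365) were not called in the same edgeR fit, and the other 4 genes had too few UMIs to be tested.

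Microglial markers moved in the same direction in these cells. The 10 fixed microglial markers summed to 7819 to 8955 CPM in DNC-NONE, 7152 to 12450 in DNC-INHIB, 4508 to 6825 in ENZ-NONE and 4312 to 6134 in ENZ-INHIB border macrophage-like cells, against 35200 to 38420 in microglia-like cells. Of the 10 markers 6 could be tested, and all 6 had negative values for digestion minus Dounce (-1.11 to -0.20). Of the defining markers, Sall1 was at 0 in 6 libraries, Slc2a5 in 4 and Sparc in 1. The 10 fixed border macrophage markers summed to 6032 to 6581 CPM in DNC-NONE and 5460 to 6682 in DNC-INHIB. They summed to 2632 to 6404 in ENZ-NONE and 3324 to 6009 in ENZ-INHIB, lower in part of the digested libraries and overlapping in the rest. The makeup of the class differed too. Cluster 12, the one with more P2ry12, gave 45 and 41 cells in DNC-NONE and DNC-INHIB and 18 and 12 in ENZ-NONE and ENZ-INHIB, beside 49, 46, 45 and 57 cells of cluster 10. Within cluster 10 the pooled P2ry12 level was 583 and 527 in the Dounce groups and 327 and 275 in the digested groups. Within cluster 12 it was 1254 and 1907 against 223 and 896. Taken alone neither cluster passed the test (-0.88 with adjusted p = 0.289 for cluster 10, -1.78 with adjusted p = 0.148 for cluster 12, edgeR). The part of the microglial markers, of the border macrophage markers and of the makeup in the P2ry12 value was not tested. The call was also lost when any of 5 libraries was left out, DNC-NONE 2 (adjusted p = 0.0966), DNC-INHIB 5 (0.104), ENZ-NONE 4 (0.0660), ENZ-INHIB 1 (0.0633) or ENZ-INHIB 3 (0.112), with the log2 value between -1.96 and -1.31 over all such fits by edgeR.

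**Figure D4:**
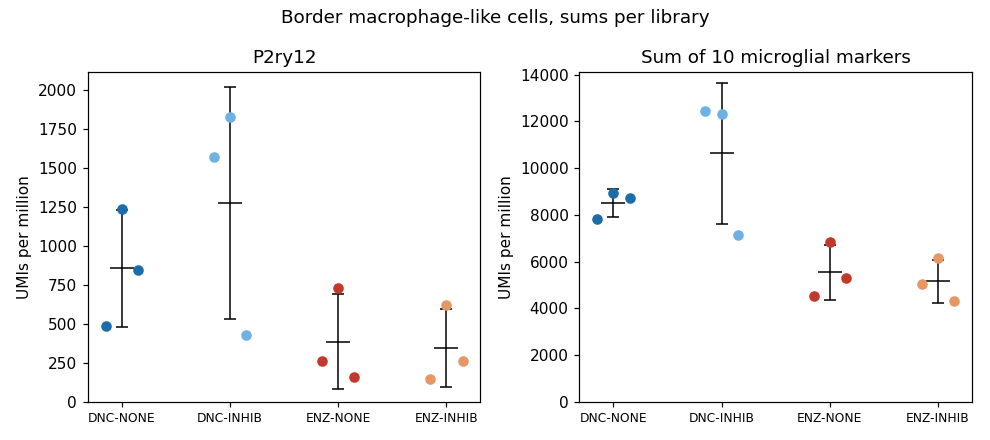
P2ry12 level in border macrophage-like cells by preparation and, beside it, the summed level of 10 microglial markers in the same cells, both in CPM on axes from 0, 1 point per library with the mean and SD of each preparation (n = 3). P2ry12 lies between 147 and 731 in the digested and between 429 and 1830 in the Dounce libraries, and the marker sum between 4312 and 6825 and between 7152 and 12450.

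Within the digested libraries without inhibitors, cells carrying the dissociation signature were compared with cells of the same mouse that did not. A cell was counted as carrying it when, after thinning, it held UMIs of at least 4 of the 19 genes in an activation list that the study drew from unsorted brain cells, none of which is among the 8. These cells made up 27.9%, 26.8% and 57.1% of microglia-like cells in ENZ-NONE 4, 5 and 6, 9.89% in DNC-NONE 1 and 0.439% to 1.21% elsewhere. P2ry12 stood at 8123, 8097 and 5716 CPM in cells with the signature and at 8416, 8817 and 6718 in cells without it, so it was lower with the signature in 3 of 3 libraries. The log2 difference was -0.11 (SE 0.03, interval -0.18 to -0.04, edgeR with the library as a block, adjusted p = 0.0925). Gpr34 was at -0.12 (SE 0.04, adjusted p = 0.213), also lower in 3 of 3. None of the 8 was called, against a background of 1.01% of 8017 genes, the 8 values ran from -0.16 (Entpd1) to 0.11 (P2rx4), and all 8 intervals lay inside 0.58 in either direction. With the stricter requirement of 5 genes, the adjusted p fell to 1.7e-04 for P2ry12 (-0.16) and 0.0043 for Gpr34 (-0.19), still short of the fold limit. With cells not thinned the adjusted p of P2ry12 was 0.0034 (-0.11), and with 1 library left out it ran from 0.193 to 0.577 (edgeR). The low level in ENZ-NONE 6 was present on both sides of the gate. Its cells under 4 signature genes (6718) lay below the cells with at least 4 in the other 2 libraries. Cells under the gate can still hold some signature genes: in ENZ-NONE 6, 703 cells were under 4 genes and 479 under 3. The low level therefore cannot be set apart from the signature by this gate.

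Among microglial clusters, the lowest P2ry12 was in cluster 8, a set of 456 cells led by Ccl4 (a chemokine), Lpl (lipoprotein lipase) and Spp1 (osteopontin). These values are a description, since the clusters came from the same cells. Compared with the other microglia of the same library, P2ry12 was lower by 1.09 ± 0.15 on the log2 scale (SD, 12 libraries) and lower in 12 of 12. P2ry13 (-0.68 ± 0.32) and Gpr34 (-0.39 ± 0.17) were lower in 12 of 12 as well, and Adora3 (-0.58 ± 0.57) and Entpd1 (-0.34 ± 0.35) in 11 of 12. P2rx4 was the gene that ran the other way, at 0.55 ± 0.36 and higher in 11 of 12 libraries, whereas P2ry6 (0.02 ± 0.39) and P2rx7 (-0.19 ± 0.57) were spread around 0.

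Cluster 7 is the Fos-led set of 879 cells, of which 67.7% came from ENZ-NONE 6. In the 6 libraries with enough of these cells, P2ry12 was lower than in the other microglia of the library by 0.34 ± 0.10 on the log2 scale and lower in 6 of 6. In ENZ-NONE 6 itself it was 5095 CPM in cluster 7 and 6782 in the other microglia, and Gpr34 was 1435 and 2162. Over the 6 libraries Gpr34 was at -0.38 ± 0.28 and lower in 5 of 6, and the means of the other 6 genes ran from -0.18 (Entpd1) to 0.36 (P2rx7), with 5 of the 6 smaller than their spread. The pooled P2ry12 level was 3693 in cluster 8, 5463 in cluster 7, 5973 in interferon-responsive-like cells (cluster 9) and 3820 in 29 proliferating-like cells, against 7681 to 8278 in clusters 1 to 6.

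**Figure D5:**
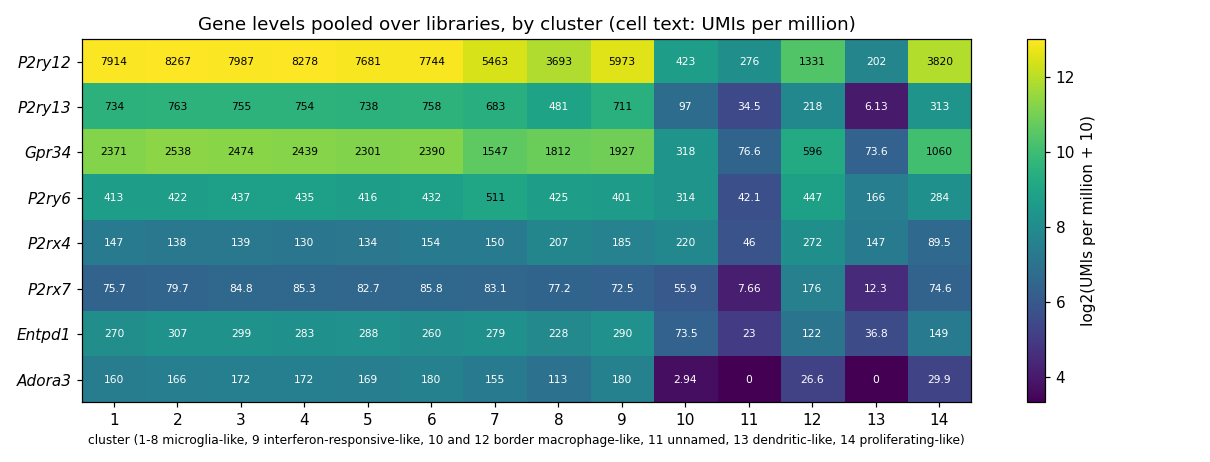
Pooled level of each gene (rows) by cluster (columns), coloured by log2(CPM + 10) and printed as CPM. P2ry12 is highest in clusters 1 to 6 (7681 to 8278), lower in clusters 7 (5463) and 8 (3693) and lowest outside microglia.

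The genes whose levels ran most closely with these were read over 107 sums of a cluster within a library, among 6046 genes. The points share libraries and cells, so the coefficients describe these data. P2ry12 ran with Selplg (Pearson r = 0.976), Fscn1 (0.960) and Tmem119 (0.947), and Gpr34 with Cx3cr1 (0.963), Lgmn (0.957) and Csf1r (0.956). P2ry13 followed Olfml3 (0.960) and Tmem119 (0.947), and Adora3 followed Gal3st4 (0.940). P2ry6 ran with the complement genes C1qa (0.883), C1qb (0.849) and C1qc (0.847), and Entpd1 with Dock4 (0.873). The channels had weaker partners, P2rx7 with Selenop (0.783) and P2rx4 with Ctsb, a lysosomal protease (0.522).

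Other genes of purinergic signalling were counted from a list of 49. Of its 18 receptors, 16 were under 1 CPM, among them P2ry1, P2ry2, P2ry4, P2rx2, P2rx3 and the adenosine receptors Adora1, Adora2a and Adora2b. The exceptions were Lpar6, a lysophosphatidic acid receptor of the same branch, at 342 CPM and P2rx1 at 3.87. Of 13 ectoenzymes and purine enzymes, Pnp (244), a purine nucleoside phosphorylase, and Entpd7 (24.6) exceeded 20 CPM, and Nt5e (CD73), which turns AMP into adenosine, had 1 UMI in all 18827 cells. The nucleoside transporters Slc29a1 (211) and Slc29a3 (160.2), the potassium channel Kcnk13 (116), the G protein subunit Gnai2 (562) and the inflammasome adaptor Pycard (489) were the most abundant of the transporters, partners and effectors. Of the 49, 23 passed the filter on low counts and 0 were called by edgeR in any of the 9 contrasts. For digestion minus Dounce, with its background of 0.891%, 3 of the 23 had an unadjusted p under 0.05: Lpar6 at -0.26 (adjusted p = 0.115), Nlrp3 at -0.26 (adjusted p = 0.175) and Gnai3 at 0.22 (adjusted p = 0.299). In border macrophage-like cells, pooled, Pycard was lower (172 against 496 CPM in microglia-like cells) and Ptger4, a prostaglandin receptor, higher (34.1 against 0.753, from 18 and 19 UMIs), while Lpar6 was alike (329.6 and 347).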

How the data were processed

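The deposited files hold raw UMI counts per gene and cell barcode, which the authors made with Cell Ranger 3.0.0 on mm10, and no column went unused. Barcodes with at least 500 genes, 1000 UMIs and at most 10% mitochondrial UMIs were kept, and 3 cells (0.0159%) were removed as marker-based doublets, a share too low for the rule to count as a doublet caller. Cells were clustered with leidenalg 0.10.2 (Leiden), and scanpy 1.11.5 gave the Scrublet scores. The 8 genes and the 49 other purinergic genes were left out of the clustering. So were the 19 genes of the activation list, further activation genes, mitochondrial, ribosomal and histone genes, Malat1 and Gm42418. Genes left out could still be listed as leading genes of a cluster. Clusters were named from fixed marker lists. These names are a reconstruction and can differ from those of the study.

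UMIs were summed per library over all kept cells, microglia-like cells or border macrophage-like cells and tested with the edgeR 4.0.16 quasi-likelihood test (TMM, filterByExpr, Benjamini-Hochberg over all genes tested) in 1 fit of 12 libraries. Replicates are separate mice. Because counts come from transcript ends, no division by length was made, and capture can differ between genes. All 8 genes are reported in each comparison, as a range where not printed singly, with any other purinergic gene that was called (none was in whole-library or microglia-like sums), and for each of the 8 genes the 3 with the highest Pearson r (among genes with a mean of at least 20 CPM), the leading ones printed. The other purinergic genes that are named were chosen after their values were seen. The 8 genes and all lists were chosen with earlier results of these data known. Fewer cells of a type and less RNA per cell cannot be told apart in whole-library sums. Alternatives included DESeq2 1.42.0, other scaling and filters, Scrublet scores, batch and left-out libraries. The edgeR steps were tested on simulated counts. One marker gene's own value is not reported here. Gene positions are from GENCODE vM21 (GRCm38).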

Additional observations from a re-analysis of the deposited data

How the results depend on the processing

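In whole-library sums, 0 of the 8 genes were called under any alternative for any of the 9 contrasts: DESeq2, no scaling, no low-count filter, looser cell filters, no 2% highest Scrublet scores, thinned cells, batch as a covariate, no fold minimum, or any library left out. Few genes were called at all, so this count of 0 among 8 says little. DESeq2 called 61 of 11629 genes for digestion minus Dounce and 0 of 16399 for DNC-NONE minus DNC-INHIB. Values near 0 changed sign. For no inhibitors minus inhibitors, P2ry12 moved from -0.00 to 0.016 (thinned cells), 0.0054 (every deposited barcode) and 0.0024 (looser filter), and P2ry6 from -0.02 to 0.056 (batch as a covariate) and 0.0012 (looser filter). With each library left out in turn, P2ry12 ran from -0.0011 to 0.10 and Adora3 from -0.066 to 0.033 for digestion, and P2ry12 from -0.043 to 0.064 and P2ry6 from -0.11 to 0.019 for inhibitors. Without the low-count filter, P2ry13 in ENZ-INHIB minus DNC-NONE had an adjusted p of 0.033 at 0.34, under the fold limit.

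Replicate numbers are shared by DNC-NONE with ENZ-INHIB (1 to 3) and by DNC-INHIB with ENZ-NONE (4 to 6). For DNC-NONE with ENZ-INHIB, same-numbered libraries did not deviate together (r = -0.155, -0.087 and -0.033). For DNC-INHIB with ENZ-NONE the values were weak (0.139, -0.020 and 0.198), though those of pairs 4 and 6 were the highest between these groups. Pairs 4 and 6 also share a batch, and pair 5 does not. Not every library correlated best with its own number. With a replicate block, 77 genes were called for ENZ-INHIB minus DNC-NONE and 95 for ENZ-NONE minus DNC-INHIB. These fits held only the 6 libraries of each pair, with 9449 and 9546 genes tested. The fit of 12 libraries without a block, with 9882 genes, called 10 and 79. A fit of the 6 libraries without a block was not run, so the part of the block in these counts is unknown. In the block fits 0 of the 8 genes were called (smallest adjusted p = 0.0859 and 0.508, edgeR).

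In border macrophage-like cells, alternatives chosen after seeing the data kept the P2ry12 call in 11 of 18 fits. It held with batch as a covariate (adjusted p = 0.0270), without scaling (0.0313), without the highest Scrublet scores (0.0273) and with a marker gate in place of clusters (0.0355). The count of called genes was 0 for cluster 10 alone and for cluster 12 alone, and 0 to 1 with each library left out. For the signature, P2ry13 went from 0.05 to -0.031 with cells not thinned, Adora3 from 0.07 to -0.059 (at least 5 genes) and -0.038 (not thinned), and P2rx7 from -0.01 to 0.015 (at least 3 genes) and between -0.022 and 0.015 with libraries left out. Not thinning moved the shares of microglia-like cells with a UMI to 60.8% (P2ry13), 42.2% (P2ry6), 17.3% (P2rx4), 10.6% (P2rx7), 31.6% (Entpd1), 20% (Adora3) and 93.1% (Gpr34). The cause of these changes was not tested, except that fewer cells enter the single-cluster fits. The border macrophage values rest on 13 to 42 cells per library.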
